A study of Capra hircus with 6 samples.

Results

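The genes of prostaglandin synthesis, response and inactivation were examined in dermal papilla cells of the secondary hair follicle (SHF-DPCs) treated with all-trans retinoic acid (ATRA). A list of 9 genes was followed, namely PTGS1, PTGS2, PTGES, PTGIS, PTGDS, PTGER2, PTGER4, PTGFR and HPGD, found in the deposited count table by gene name or by the symbol beside it. Of these 9 genes, 8 had a row among the 15944 genes of the table, and 7 were among the 12588 genes with enough counts for testing. PTGER2, a receptor for prostaglandin E2, was not analysed here.

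The SHF-DPCs were primary cultures from wild type Albas cashmere goats (Capra hircus) of 3 years, grown from scapular skin taken in anagen, the growth phase of the hair cycle. The control group (3 libraries) was kept without ATRA, and the ATRA-treated group (3 libraries) received 100 µM ATRA for 24 h. ATRA is the metabolite of vitamin A that binds the retinoic acid receptors. The study's methods give cells from 3 goats for sequencing and cultures of passages 4 to 7, and the labels give the same batch for all 6 libraries. Whether a control and an ATRA library came from the same goat is not given in the sources used here, nor is the culture behind each library, so the p-values below measure the spread between these libraries.

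Prostaglandins are lipid signals made from arachidonic acid, which phospholipases free from membranes. The cyclooxygenases PTGS1 and PTGS2 turn it into prostaglandin H2, and terminal synthases then make prostaglandin E2, D2, F2α or prostacyclin, each with its own G protein-coupled receptors. In skin these lipids act between the cells of the hair follicle, where prostaglandin E2 and F2α are known to favour hair growth and prostaglandin D2 to oppose it.

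Total counts lay between 35532339 and 38012771 per library. Levels are given as normalised counts (CPM, the count of a gene relative to the total of its library), scaled between libraries by the TMM method, in which 1 count was worth 0.0227 to 0.0322 CPM. Changes are given as log2FC, the log2 fold change of ATRA over control, and they were tested by the quasi-likelihood method of edgeR with Benjamini-Hochberg adjustment over every tested gene. A gene was called when this p was under 0.05, and a differentially expressed gene (DEG) had |log2FC| above 1 and an unadjusted p under 0.05. The response to ATRA was broad, since 79.7% of all tested genes were called (40.9% higher and 38.7% lower with ATRA). The DEGs made up 31.0% of them (13.7% higher, 17.3% lower). Dermal papilla markers were partly absent. ALPL had 0 counts in the control libraries, while CORIN and PROM1 had 1 count each in all 6 libraries together. These are RNA counts. The study reports positive staining of its purified cells for CD133, the protein of PROM1, and for α-SMA, the protein of ACTA2. VCAN, BMP4 and ACTA2 were abundant in the control group. Of 12 tested dermal papilla markers 11 fell with ATRA, with a median log2FC of -1.99. The summed level of the list went from 8915 to 9845 CPM in the control libraries to 226 to 242 CPM in the ATRA libraries. This sum follows the most abundant markers and does not give the change of each. Of 12 fibroblast markers 10 fell. When counts were divided by library size only, FGF7 turned to a log2FC of 0.25. LEF1 (-0.06) and the fibroblast marker PDGFRB (0.04) were then not called, while the other fallen markers of both lists still fell. These are bulk samples, in which fewer cells of a type and less RNA per cell cannot be told apart.

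Among the 7 tested prostaglandin genes, PTGS2, PTGES and PTGFR rose with ATRA, PTGS1, PTGIS and HPGD fell, and PTGER4 was not called. With 79.7% of all genes called, 6 called of 7 is a share near the background. PTGS2 and PTGFR were DEGs in the higher direction and PTGS1 and HPGD in the lower. HPGD and PTGS1 entered the test through their control libraries alone, since 10 counts in a median library were needed in 3 libraries and 0 and 1 of the ATRA libraries reached this. For these 2 genes the filter therefore gave a difference, and their calls are a description. The median log2FC of the 7 genes was 0.06, against 0.04 for all tested genes. The control and ATRA libraries did not overlap for 6 of the 7 genes, and this was so for 80.1% of all genes. The cyclooxygenases, the terminal synthases and the receptors each held members with different outcomes, and they are described in that order.

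**Figure D1:**
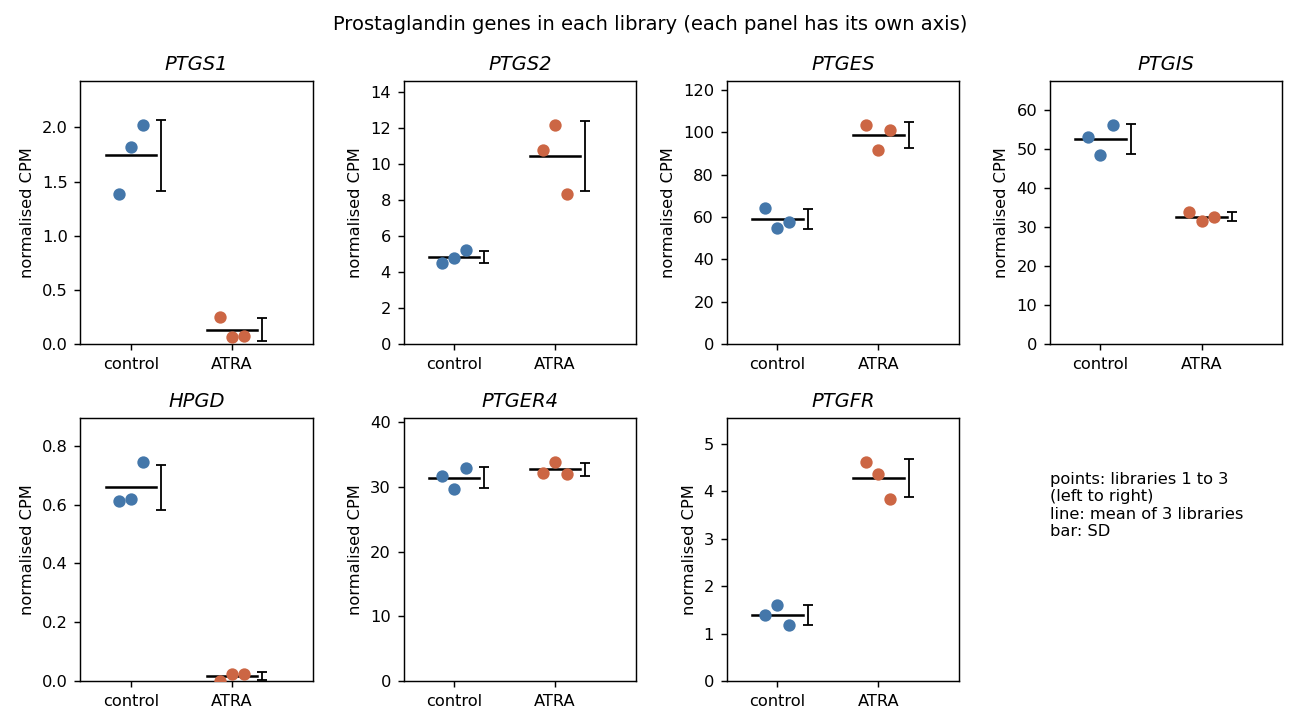
Normalised CPM (vertical axis, starting at 0 and separate for each gene) of the 7 tested prostaglandin genes in the 3 control and 3 ATRA libraries; points are libraries, the line is the mean and the bar the SD. The groups overlap for PTGER4, which lay between 29.7 and 33.9 CPM, and are apart for the other genes.

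The cyclooxygenases moved in opposite directions. PTGS1, the cyclooxygenase that most cells make at a steady low level, had 43, 59 and 65 counts in the control libraries and 11, 3 and 3 in the ATRA libraries. Every ATRA library was far below every control library, and the last of these counts lie at the edge of what this depth resolves, since 3 counts corresponded to 0.0680 to 0.0967 CPM. The level of PTGS1 fell 13.2-fold, from 1.74 ± 0.326 to 0.132 ± 0.106 CPM (SD, n = 3 each). The log2FC of PTGS1 was -3.69 (SE 0.401, adjusted p = 1.18e-07, edgeR's quasi-likelihood test, with entry through the control libraries alone). The ATRA libraries differed among themselves, and without ATRA replicate 1 the log2FC of PTGS1 was -4.58.

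PTGS2, the cyclooxygenase that cytokines and growth factors induce, had 140, 155 and 167 counts in the control libraries and 466, 536 and 344 in the ATRA libraries. All ATRA libraries were above all control libraries, with the widest spread in the ATRA-treated group. The level of PTGS2 went from 4.83 ± 0.346 to 10.4 ± 1.95 CPM (SD, n = 3 each), a 2.15-fold rise with a log2FC of 1.11 (SE 0.141, adjusted p = 9.19e-07, edgeR's quasi-likelihood test). The rise sits close to the DEG threshold. Without ATRA replicate 2, the library with the most PTGS2 counts, the log2FC was 0.97 and PTGS2 was no longer a DEG, although it was still called.

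Within a library, the ratio of PTGS2 to PTGS1 does not depend on the scaling. On the log2 scale it was 1.70, 1.39 and 1.36 in the control libraries and 5.40, 7.48 and 6.84 in the ATRA libraries. The groups were apart, and the difference of 5.09 corresponds to a 34.1-fold shift of the ratio toward PTGS2 (exact permutation test, two-sided, p = 0.1, adjusted p = 0.1 over 3 ratios). With 3 libraries against 3 this is the smallest p the test can give. The size of the shift rests on the few PTGS1 counts with ATRA, for it was 5.68 without ATRA replicate 1 and 2.23 with 1 CPM added to both genes. Because PTGS1 passed the filter through its control libraries alone, this ratio is a description as well. The ratio is read for its change and not for its height, because the length of the transcripts was not available to compare the levels of both genes.

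The terminal synthases that were measured also diverged. PTGES, the inducible microsomal enzyme that makes prostaglandin E2 and works together with PTGS2, had 2002, 1778 and 1855 counts in the control libraries and 4474, 4052 and 4184 in the ATRA libraries. The ATRA libraries lay well above the control libraries, with little spread in either group. The level of PTGES went from 59.1 ± 4.90 to 98.8 ± 6.15 CPM (SD, n = 3 each), a 1.67-fold rise (log2FC 0.74, SE 0.0704, adjusted p = 1.84e-08, edgeR's quasi-likelihood test). PTGES was called but was not a DEG, and 41.5% of all tested genes had a larger |log2FC|.

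PTGIS, the prostacyclin synthase, had 1644, 1568 and 1805 counts in the control libraries and 1467, 1395 and 1348 in the ATRA libraries. Each ATRA library was below each control library, by a small margin in the raw counts and a wider margin after scaling. Its level fell 1.61-fold, from 52.5 ± 3.88 to 32.7 ± 1.16 CPM (SD, n = 3 each) (log2FC -0.68, SE 0.0726, adjusted p = 8.69e-08, edgeR's quasi-likelihood test). The size of this fall depends on the scaling, since it was -0.21 (adjusted p = 0.0145, edgeR's quasi-likelihood test) when counts were divided by library size only. PTGDS, the lipocalin-type enzyme that makes prostaglandin D2, had 0 counts in all 3 control libraries and in ATRA replicates 1 and 2, and 1 count in ATRA replicate 3. It was not tested and was at or near 0 in both groups at this depth.

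The ratio of PTGES to PTGIS on the log2 scale was 0.28, 0.18 and 0.04 in the control libraries and 1.61, 1.54 and 1.63 in the ATRA libraries. All ATRA libraries were above all control libraries. The difference was 1.43, a 2.69-fold shift toward PTGES that no scaling of the libraries alters (exact permutation test, two-sided, p = 0.1, adjusted p = 0.1, the smallest possible).

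Of the receptors, PTGFR rose and PTGER4 did not pass the test. PTGER4 encodes the EP4 receptor, through which prostaglandin E2 raises cyclic AMP. It had 985, 960 and 1056 counts in the control libraries and 1391, 1495 and 1323 in the ATRA libraries. After scaling the groups overlapped, at 31.4 ± 1.62 CPM without and 32.7 ± 1.06 CPM with ATRA (SD, n = 3 each). The log2FC of PTGER4 was 0.06 (95% confidence interval -0.10 to 0.21, adjusted p = 0.479, edgeR's quasi-likelihood test). The outcome for PTGER4 rests on the scaling. With library size only, its log2FC was 0.54 and it was called (adjusted p = 4.26e-06, edgeR's quasi-likelihood test), but there the median of all genes was 0.52 as well.

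PTGFR encodes the FP receptor for prostaglandin F2α, which signals through Gq and calcium. It had 43, 52 and 38 counts in the control libraries and 200, 193 and 159 in the ATRA libraries. The lowest ATRA library was well above the highest control library. The level of PTGFR went from 1.39 ± 0.212 to 4.28 ± 0.401 CPM (SD, n = 3 each), a 3.08-fold rise with a log2FC of 1.62 (SE 0.186, adjusted p = 2.46e-07, edgeR's quasi-likelihood test). Of all tested genes 17.7% had a larger |log2FC|. The log2 ratio of PTGFR to PTGER4 was -4.52, -4.21 and -4.80 in the control libraries and -2.80, -2.95 and -3.06 in the ATRA libraries. These groups did not overlap, and the ratio shifted 2.97-fold toward PTGFR (exact permutation test, two-sided, p = 0.1, adjusted p = 0.1, the smallest possible).

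The genes whose pattern over the 6 libraries was most like that of PTGFR were sought by the root mean square difference of log2 CPM, centred on the control mean. They were DEDD2 (0.0555), MED30 (0.0915) and CARMIL2 (0.0929). Their log2FC values were 1.62, 1.68 and 1.63. The likeness is largely that of the shift between the groups, and it carries no test.

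HPGD encodes the hydroxyprostaglandin dehydrogenase that starts the inactivation of prostaglandins E2 and F2α. It had 19, 20 and 24 counts in the control libraries and 0, 1 and 1 in the ATRA libraries. The transcript was sparse in every control library and almost undetected with ATRA. The level of HPGD went from 0.659 ± 0.0762 CPM to 0.0156 ± 0.0135 CPM (SD, n = 3 each). With 63 counts against 2, the ratio of the scaled counts was 42.5 (95% counting interval 11.3 to 358), an interval that covers counting error only. The adjusted p of HPGD was 6.65e-07 by edgeR's quasi-likelihood test, with entry through the control libraries alone. This p and the interval are therefore a description of a difference that the filter had a part in. A filter of at least 1 CPM in 3 libraries would have removed the gene.

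**Figure D2:**
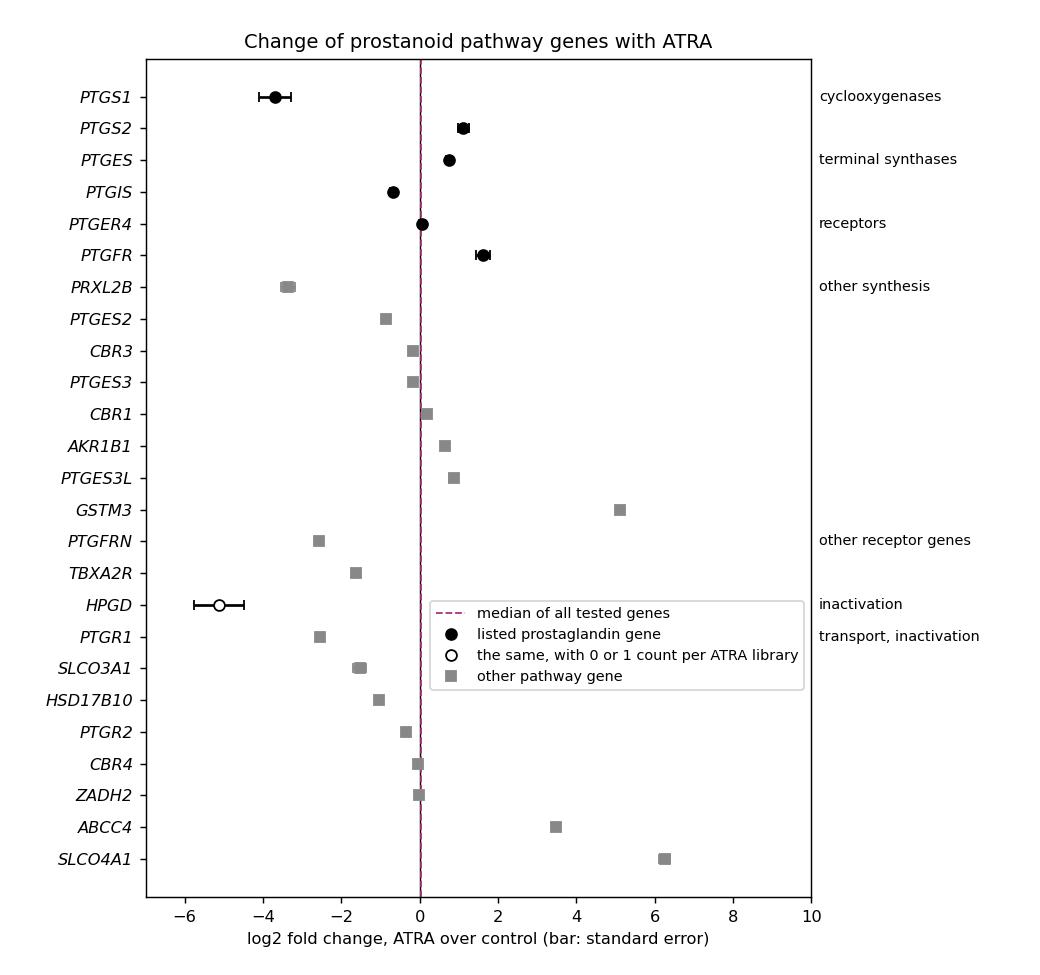
The log2FC of ATRA over control (horizontal axis, bars are standard errors) for the 7 tested prostaglandin genes (circles) and for the tested genes of other synthesis enzymes, receptor genes and transport or inactivation genes (squares); the dashed line is the median of all tested genes, 0.04. PTGS1 and HPGD lie far to the left, the latter open because it had 0 or 1 count in each ATRA library, while SLCO4A1, GSTM3 and ABCC4 lie farthest to the right.

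The scaling bears on the smaller of these changes. TMM factors averaged 0.847 for control and 1.18 for ATRA libraries, and dividing by library size only moved the median log2FC of all genes from 0.04 to 0.52. Upper-quartile scaling gave a median of 0.11 and RLE size factors 0.02. The sign of each of the 7 tested genes was kept under these 4 scalings. PTGES, for example, had a log2FC of 1.22 with library size only, and PTGS1 one of -3.22.

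**Figure D3:**
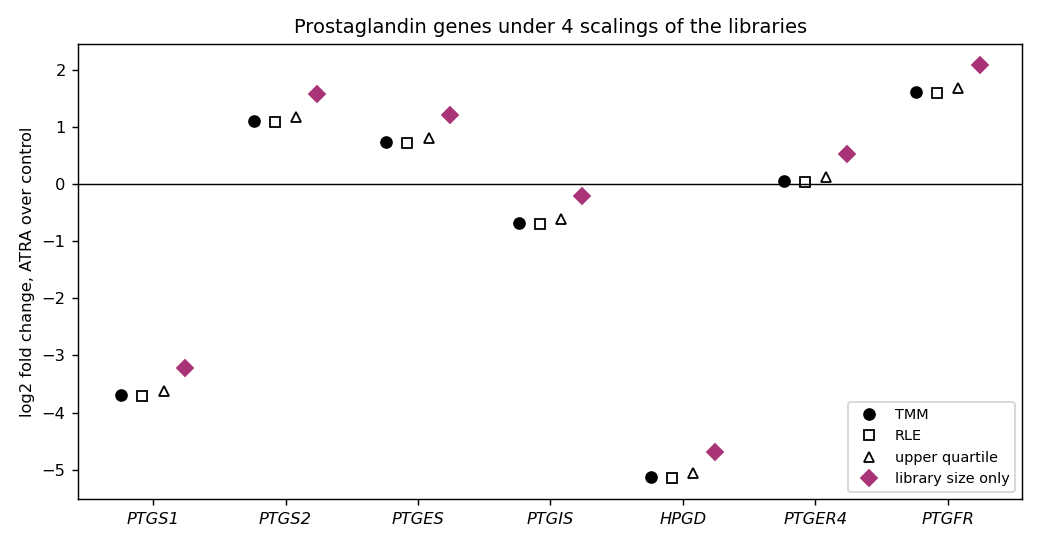
The log2FC of ATRA over control (vertical axis) of the 7 tested prostaglandin genes under 4 scalings of the libraries (TMM, RLE size factors, upper quartile and library size only). Library size only moves every gene upward, taking PTGER4 from 0.06 to 0.54 and PTGIS from -0.68 to -0.21, without turning a sign.

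The other enzymes of prostanoid synthesis were mixed. Of 13 symbols listed 11 rows were found and 8 genes tested, of which 4 rose, 3 fell and 1 was not called (median log2FC 0.01, against 0.04 for all genes). Called genes thus made up 87.5%, against 79.7% of all genes. The balance depends on the scaling, with 6 higher and 2 lower for library size only and 3 higher and 4 lower for RLE size factors. GSTM3, a mu class glutathione transferase of a family in which some members form prostaglandin E2 or D2, had 308, 323 and 324 counts in the control libraries and 15870, 13875 and 15173 in the ATRA libraries. It was low in every control library and abundant in every ATRA library, 35.0-fold higher (log2FC 5.13, SE 0.0793, adjusted p = 5.65e-20, edgeR's quasi-likelihood test). Reads of near-identical mu class genes could be divided between them, so the value of GSTM3 is uncertain in this respect. AKR1B1, an aldo-keto reductase with prostaglandin F synthase activity, rose 1.57-fold, from 3082, 3084 and 2712 counts to 6163, 6294 and 6270 (log2FC 0.65, SE 0.0645, adjusted p = 3.71e-08, edgeR's quasi-likelihood test). PTGES3L also rose, with a log2FC of 0.87.

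In the lower direction, PRXL2B, listed under the older symbol FAM213B and also a prostaglandin F synthase, had 232, 304 and 249 counts in the control libraries and 34, 30 and 39 in the ATRA libraries. The groups were widely apart, and the log2FC of PRXL2B was -3.35 (SE 0.181, adjusted p = 4.48e-12, edgeR's quasi-likelihood test). AKR1B1 and PRXL2B, which share that activity, thus had opposite signs. PTGES2, the membrane-associated prostaglandin E synthase, fell (log2FC -0.86, adjusted p = 2.80e-07, edgeR's quasi-likelihood test). PTGES3, the cytosolic one and a chaperone partner of HSP90, had a log2FC of -0.18, which turned to 0.30 with library size only. CBR1 (LOC108633281), a carbonyl reductase that acts on prostaglandins, had a log2FC of 0.19, and CBR3, with -0.18, was not called. The call of CBR1 was lost with RLE size factors (adjusted p = 0.0504, edgeR's quasi-likelihood test) and when any of 4 of the 6 libraries was left out, at most to an adjusted p of 0.233 without ATRA replicate 3. TBXAS1, the thromboxane synthase, had 1 count in all 6 libraries together.

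Among the other receptor genes, TBXA2R and PTGFRN fell and were DEGs. TBXA2R, the thromboxane receptor, had 1811, 1592 and 1905 counts in the control libraries and 816, 756 and 732 in the ATRA libraries, with no overlap. Its level went from 55.6 to 17.9 CPM (log2FC -1.64, SE 0.0831, adjusted p = 1.85e-12, edgeR's quasi-likelihood test). PTGFRN encodes a membrane protein that binds the FP receptor and is known to inhibit ligand binding to it. It had 13244, 14154 and 14134 counts in the control libraries and 2991, 3590 and 2927 in the ATRA libraries. PTGFRN was therefore lower in each library in which PTGFR was higher, at a log2FC of -2.56 (SE 0.0661, adjusted p = 6.57e-17, edgeR's quasi-likelihood test).

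The remaining receptors were sparse and were not tested. PTGDR, a receptor for prostaglandin D2, had 0, 0 and 1 counts in the control libraries and 18, 9 and 22 in the ATRA libraries. The ratio of the scaled counts was 36.4 (95% counting interval 6.23 to 1465). PTGIR, the prostacyclin receptor, had 0, 1 and 0 counts in the control libraries and 10, 4 and 10 in the ATRA libraries, a ratio of 17.8 (95% counting interval 2.90 to 732). Both were near the limit of detection in the control group. PTGDR was above it in each ATRA library, whereas PTGIR, with 4 counts in ATRA replicate 2, was still near it there. The intervals cover counting error only. PTGER3, which couples prostaglandin E2 to Gi, had between 0 and 4 counts in every library.

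Transporters and inactivating enzymes held large changes in both directions. SLCO4A1, an organic anion transporter that takes up prostaglandins, had 12, 12 and 24 counts in the control libraries and 1686, 1704 and 1581 in the ATRA libraries. It was scarce without ATRA and 77.0-fold higher with it (log2FC 6.25, SE 0.150, adjusted p = 2.08e-17, edgeR's quasi-likelihood test). ABCC4, the multidrug resistance protein that exports prostaglandin E2 from cells, had 470, 473 and 455 counts in the control libraries and 6458, 7911 and 6624 in the ATRA libraries. All ATRA libraries stood far above the controls, 11.1-fold on average (log2FC 3.48, SE 0.0782, adjusted p = 8.50e-18, edgeR's quasi-likelihood test). SLCO3A1, a transporter of the same family as SLCO4A1, went the other way (log2FC -1.53, adjusted p = 2.48e-07, edgeR's quasi-likelihood test). SLCO2A1, the main prostaglandin uptake carrier, had 5, 4 and 11 counts in the control libraries and 2, 4 and 1 in the ATRA libraries and was not tested.

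PTGR1, a prostaglandin reductase that acts after HPGD, had 1118, 1099 and 1115 counts in the control libraries and 278, 229 and 262 in the ATRA libraries. It fell in the same direction as HPGD, and at higher counts (log2FC -2.54, SE 0.0950, adjusted p = 1.70e-14, edgeR's quasi-likelihood test). PTGR2, another such reductase, was at -0.35 and turned to 0.13, not called, with library size only. HSD17B10, a mitochondrial dehydrogenase, fell with a log2FC of -1.03. ZADH2 and CBR4 were not called. In all, 2 of the 8 tested genes of this list rose and 4 fell (median log2FC -0.20), while with library size only 4 rose and 3 fell. Called genes made up 75% of it by the main scaling, against 79.7% of all genes.

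Release of arachidonic acid, the step before the cyclooxygenases, and its return to phospholipids were covered by a joint list. Of its 19 tested genes 8 rose and 10 fell (median log2FC -0.29). These counts pool opposing functions and do not describe release alone. With library size only 10 rose and 6 fell. By the main scaling 94.7% of the list was called, against 79.7% of all genes. Among the genes that rose, PLA2G7 and MGLL entered the test through the ATRA libraries alone. PLA2G4A, the cytosolic phospholipase A2 that frees arachidonic acid on a rise of calcium, had 517, 546 and 555 counts in the control libraries and 68, 44 and 37 in the ATRA libraries. The ATRA libraries held a small part of the control level, 14.7-fold lower (log2FC -3.87, SE 0.157, adjusted p = 5.76e-14, edgeR's quasi-likelihood test). PTGS2 was thus higher in the same libraries in which PLA2G4A was lower. ANXA1, an annexin known to inhibit phospholipase A2, fell from 632 to 102 CPM (log2FC -2.62). LPCAT3, which returns arachidonate to phospholipids, fell too (log2FC -2.73). In the other direction, DAGLB, a diacylglycerol lipase, rose with a log2FC of 1.60, the fatty acid amide hydrolase gene FAAH with 1.14 and the calcium-independent phospholipase gene PLA2G6 with 0.70.

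In the lipoxygenase and epoxygenase branches, which compete with the cyclooxygenases for arachidonic acid, 2 of 14 tested genes rose and 9 fell (median log2FC -0.92), and with library size only 4 rose and 7 fell. The called share was 78.6%, against 79.7% of all genes. LTC4S, which rose, entered the test through the ATRA libraries alone, and DPEP2, which fell, through the control libraries alone. The call of LTC4S was lost when either of 2 of the 6 libraries was left out (adjusted p = 0.0870 without control replicate 3, edgeR's quasi-likelihood test). EPHX1, an epoxide hydrolase, rose (log2FC 1.56). LTB4R2, a leukotriene B4 receptor, fell (log2FC -2.51), as did the skin lipoxygenase gene ALOX12B (log2FC -2.36). A row annotated as the epoxygenase CYP2J2 (LOC108635409) also fell, at -1.98, but the table holds several such rows and reads could be divided between them. ALOX5, the enzyme that starts leukotriene synthesis, had 0 counts in the control libraries and 2, 3 and 10 in the ATRA libraries and was not tested.

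Genes known to regulate PTGS2 changed in both directions, with 11 of 28 tested genes higher and 12 lower (median log2FC -0.07), and 16 higher and 8 lower with library size only. Called genes made up 82.1% of this list, near the 79.7% of all genes. IL1A, an interleukin that induces PTGS2 in many cells, had 9, 8 and 9 counts in the control libraries and 794, 664 and 744 in the ATRA libraries. The transcript was scarce without ATRA and 62.9-fold higher with it (log2FC 5.96, SE 0.184, adjusted p = 9.45e-16, edgeR's quasi-likelihood test). As no control library reached the filter, IL1A entered the test through the ATRA libraries alone, so the filter gave a difference there as well. Its receptor gene IL1R1 fell (log2FC -1.98). The transcription factor genes JUNB, CEBPD and CEBPB rose with log2FC values of 2.28, 1.34 and 0.92, whereas FOSL2 fell by 2.32, JUN by 1.60 and NFATC1 by 1.16 on the log2 scale. Of the proteins that act on the PTGS2 transcript, CELF2 fell (log2FC -3.86). ZFP36, which promotes decay, was at -0.55 and was not called with library size only. ELAVL1, which stabilises the transcript, was not called at -0.13, but turned to the higher side, with a log2FC of 0.35 when only library size was used.

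Downstream of the receptors, the cyclic AMP branch that follows EP4 held 33 tested genes, of which 14 rose and 16 fell (median log2FC -0.11). This split depends on the scaling, with 19 higher and 10 lower for library size only and 16 higher and 13 lower for the upper quartile. By the main scaling 90.9% of the branch was called, against 79.7% of all genes. ADCY4, which rose, entered the test through the ATRA libraries alone, and PDE7B, which fell, through the control libraries alone. The cyclic AMP responsive genes SIK1 (log2FC 3.25) and NR4A3 (2.17) rose, as did GRK5 (2.58), a kinase that desensitises receptors. The kinase anchor gene AKAP12 (-3.82, with entry through the control libraries alone), the kinase subunit gene PRKAR2B (-2.48) and the phosphodiesterase gene PDE3A (-1.90) fell. GNAS (LOC102188874), the Gs subunit, was at -0.21, and this turned to 0.27 with library size only. A further row annotated as GNAS (LOC108633189) rose, with a log2FC of 1.60, and reads could be divided between such rows.

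In the Gq and calcium branch that follows the FP receptor, 4 of 16 tested genes rose and 12 fell (median log2FC -0.29). All of them were thus called, against 79.7% of all genes. The split too depends on the scaling, with 8 higher and 4 lower for library size only and 4 higher and 9 lower for the upper quartile. RGS2, which rose, entered the test through the ATRA libraries alone. RCAN1, a calcineurin inhibitor that calcium signalling induces, rose with a log2FC of 2.47, and the calcium channel gene ITPR2 with 0.88. The calcineurin subunit gene PPP3CA fell (-1.54), and so did ITPR3 (-1.23) and the phospholipase gene PLCB3 (-0.93). GNAQ (LOC102189950), the Gq subunit, had a log2FC of 0.20 (adjusted p = 0.0248, edgeR's quasi-likelihood test), a call that was lost when any of 4 of the 6 libraries was left out (adjusted p = 0.245 and log2FC 0.08 without ATRA replicate 2).

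**Figure D4:**
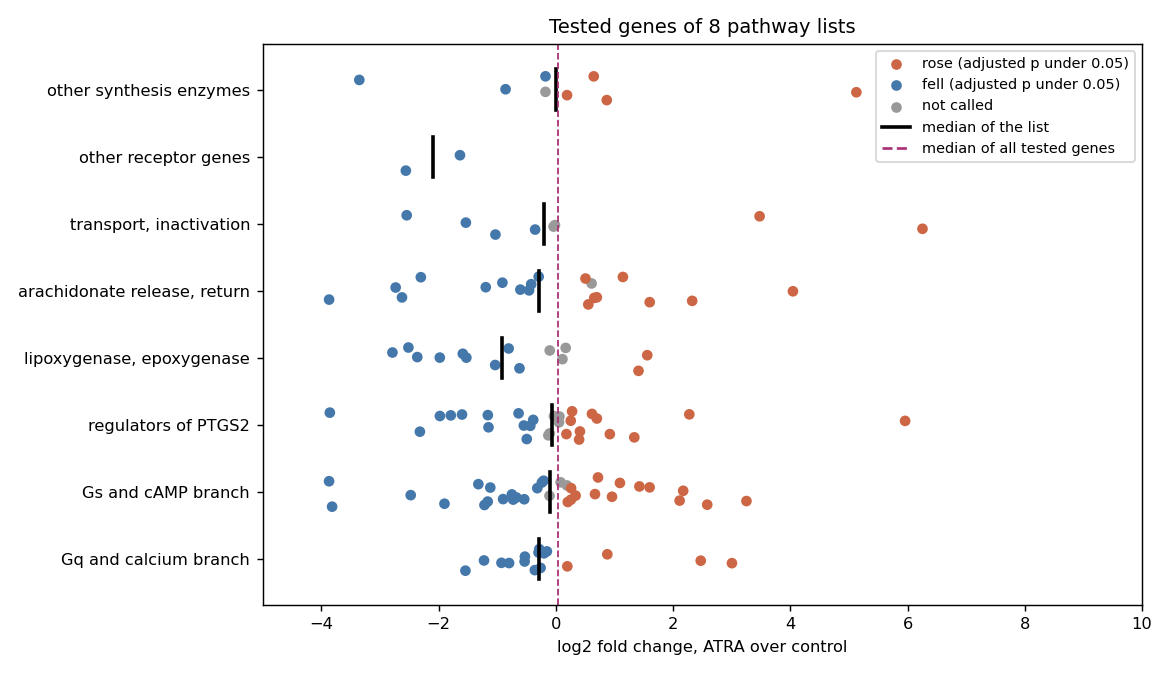
The log2FC of ATRA over control (horizontal axis) of each tested gene in 8 lists of pathway genes (rows); colour gives the call, the black bar is the median of the list and the dashed line that of all tested genes, 0.04. In all, 45 genes rose, 68 fell and 15 were not called, and most lists spread to both sides.

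Over these 8 lists, 128 genes were tested, of which 45 rose and 68 fell. Called genes made up 88.3%, against 79.7% of all genes (40.9% higher and 38.7% lower). Of the 128 genes, 9 had entered the test through 1 group alone, and without them 39 rose and 65 fell. There were 21 DEGs in the higher direction and 35 in the lower, beside 13.7% and 17.3% of all tested genes. The balance of called genes turned with library size only, where 67 rose and 42 fell.

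Markers of other cell types were examined beside these results. For leukocytes, a source of prostanoids in tissue, 6 of 12 markers had a row, and the summed level was 9.27 to 12.9 CPM in the control libraries and 41.3 to 44.3 CPM in the ATRA libraries. That difference came from CD14 and CD68, which rose, whereas AIF1, ITGAM and CD3E were at or near 0. For melanocytes, 3 of 7 markers had a row, with 16.1 to 17.6 CPM against 32.2 to 39.0 CPM, where MITF rose (log2FC 1.33), PMEL fell (log2FC -0.90) and TYRP1 had 1 count in all. Of 11 keratinocyte markers 9 had a row, with 3.21 to 5.01 CPM against 5.40 to 5.97 CPM. For endothelial cells, 7 of 9 markers had a row, with 20.4 to 23.2 CPM against 16.5 to 19.7 CPM. This sum holds opposite changes. EGFL7 fell (log2FC -1.04) and TEK rose (log2FC 0.87). The call of TEK was lost when either of 2 of the 6 libraries was left out (adjusted p = 0.0729 without control replicate 3, edgeR's quasi-likelihood test). PECAM1 had 0 counts in the control libraries and 242, 340 and 206 in the ATRA libraries, with entry through the ATRA libraries alone. CDH5 had 1 count in all. All 5 adipocyte markers had a row, with 17.2 to 20.9 CPM against 3.41 to 4.03 CPM. CIDEC fell (log2FC -4.74), while PLIN1 (from 0.893 to 2.06 CPM) and ADIPOQ (from 0.433 to 0.887 CPM) rose. ADIPOQ entered the test through the ATRA libraries alone. Its call was lost when any of 4 of the 6 libraries was left out (adjusted p = 0.153 without control replicate 2, edgeR's quasi-likelihood test). The part of such cells in the changes of the prostaglandin genes was not tested.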

How the data were processed

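SHF-DPCs of 2 groups, control (3 libraries) and ATRA (3 libraries), were profiled by poly(A) RNA-seq. The authors cleaned reads with fastp and TrimGalore 0.6.6, and the submitters' processing notes name HISAT2, featureCounts and DESeq2. The genome build and annotation are not given in the sources used here, so no coordinates are printed, and whether counting used strand is unknown. The authors deposited whole-number read counts per gene, not normalised, with annotation columns that were used only for gene names and the KEGG terms.

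Genes were kept by filterByExpr (12588 of 15944), scaled by TMM and tested two-sided with edgeR 4.0.16 (R 4.3.3) in glmQLFit and glmQLFTest, robust, over all 6 libraries without covariates, with Benjamini-Hochberg adjustment. The SE is |log2FC| over the square root of F, and the prior count was 0.125. The study names R's t.test function, which is not fitted to counts and was an alternative. The others were DESeq2 1.42.0, limma-voom (limma 3.58.1), 3 scalings, 2 filters, a pseudocount of 1, an adjusted p under 0.01, a replicate block and each library left out. The counting intervals of HPGD, PTGDR and PTGIR were added after seeing the data. Of 6 planned ratios 3 could be computed, since the others had a gene at 0 counts or without a row. Transcript lengths were not available, so levels per length were not computed.

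The genes and lists were chosen with earlier results of these data known. All listed prostaglandin, synthesis, receptor, transport and inactivation genes could be named, and from each of the other lists no more than 3 rising and 3 falling genes, taken by |log2FC| among called genes that had 1 CPM or more on average and no overlap, besides PLA2G4A, ANXA1, ZFP36, ELAVL1, IL1A, CEBPB, GNAS and GNAQ. ALOX5, JUN, NFATC1, the further GNAS row and the cell type markers were named with their values already known. So were PLA2G7, MGLL, LTC4S, DPEP2, ADCY4, PDE7B and RGS2, for their entry through the control or the ATRA libraries alone. Within groups, pairs of libraries differed by a chi-square per degree of freedom of 5.12 to 19.0, so none was a copy. Both pairs with ATRA replicate 2 stood highest (19.0 with ATRA replicate 1 and 17.8 with ATRA replicate 3). On simulated data for ATRA against control with 200 of 12588 genes changed, edgeR recovered 193 with 9 unchanged genes called. The simulation gave all genes the same dispersion and the groups no difference in composition, and it changed far fewer genes than were called here. It therefore checks the running of the code and not the scaling or the error rate under so broad a response. Figures were drawn with matplotlib 3.10.9 (Python 3.11.15).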

Additional observations from a re-analysis of the deposited data

How the results depend on the processing

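The direction of PTGS1, PTGS2, PTGES, PTGIS, PTGFR and HPGD was kept under all alternatives run that gave a value for them, and none turned a sign. Dividing by library size only called PTGER4 (log2FC 0.54). Over all genes it gave 7921 higher and 2861 lower in place of 5151 and 4877, and over the 8 pathway lists 67 rose and 42 fell in place of 45 and 68, with 34 DEGs in the higher direction in place of 21. Requiring at least 1 CPM in 3 libraries removed HPGD and left 1 of the prostaglandin genes as a DEG in the lower direction. The t.test function of R, run with a pseudocount of 1, left 1 DEG in each direction, since PTGS2 (0.96) and HPGD (-0.71) were short of the fold; it called 4260 genes higher and 4260 lower. The pseudocount of 1 reduced the difference of the PTGS2 to PTGS1 log2 ratio from 5.09 to 2.23 and likewise reduced the low genes, with -1.28 for PTGS1, 0.97 for PTGS2, 1.14 for PTGFR and -0.71 for HPGD. Leaving out each library gave 1 to 2 DEGs in the higher direction, PTGS2 being lost without ATRA replicate 2, and 3 rose and 3 fell each time. An adjusted p under 0.01 also gave 3 and 3.

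The shared replicate numbers were not treated as pairs, since deviations from the group means correlated at only 0.09, 0.03 and -0.08 for the same numbers, and ATRA 2 correlated best with control 3 (0.10). This does not show that libraries of the same number came from different goats. With the replicate block 5123 genes rose and 4869 fell, and the prostaglandin genes gave 3 and 3. Depth limits PTGS1 and HPGD, whose ATRA libraries held 0 to 11 counts, and PTGDS, whose absence at this depth cannot be told from a very low level.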

Other observations

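The annotation deposited with the counts was used, after the data were seen, for a wider view of the pathway. Of 45 rows annotated with the KEGG term for arachidonic acid metabolism, 29 were tested. By edgeR's quasi-likelihood test 8 rose and 16 fell, with a median log2FC of -0.29. These values are for the main scaling alone, and how this balance depends on the scaling was not examined. The called share was 82.8%, near the 79.7% of all tested genes (40.9% higher, 38.7% lower). Among the 29 tested genes 3 were DEGs in the higher direction and 7 in the lower, beside 13.7% and 17.3% of all genes. The term is carried by 5 of the prostaglandin genes described above. The table also holds a pair of rows annotated as prostaglandin F synthase, LOC102187782 and LOC102188299, of which the first had 1 count in control replicate 3 and 1 in ATRA replicate 2, and the other 2 counts in control replicate 1 and none elsewhere.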
